A study of Mus musculus with 2 samples.

Results

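The genes Mrc1, Folr2, Cd163, Lyve1, Pf4, Cx3cr1 and Stab1, which mark tissue-resident macrophages, were followed through the macrophages and monocytes of MC38 tumours from mice treated with antibodies to GITR. They were chosen by name, 7 of the 33696 mouse genes measured, and their unique molecular identifiers (UMIs, each counting 1 captured RNA molecule) were summed per mouse in each cell type and cluster of the authors' deposited cell annotation. MC38 is a mouse colon carcinoma line; 2000000 cells were implanted under the skin of mice that carry human Fc gamma receptors, a genotype that all groups shared. All antibodies were human IgG1 molecules against mouse GITR, a costimulatory receptor of T cells, and were given into the peritoneum at 100 µg per mouse in 2 injections 3 days apart. N297A is an agonist whose Fc part does not engage Fc receptors and was given to 2 mice. GA-aFuc is an agonist with an enhanced Fc part and was given to 1 mouse. GITR/Syn GA-aFuc has the same enhanced Fc part without agonist activity and was given to 1 mouse; the sources used here do not say what Syn stands for. The 2 Untreated mice stand where the study's design names PBS. CD45+ cells were sorted from the tumours 4 days after treatment, labelled with 1 hashtag antibody per mouse and run as 1 library. The design gives 3 mice per treatment, and the 6 mice of this library are analysed here. With 1 mouse in each Fc-enhanced group, every test assumes that the lone mouse varies like the mice of the groups of 2.

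Resident macrophages settle in tissues before birth or mature there slowly from monocytes, and they clear debris, iron and lipoproteins through a set of endocytic receptors. Mrc1 encodes the mannose receptor CD206, Stab1 the scavenger receptor stabilin-1, and Cd163 the receptor for haemoglobin bound to haptoglobin. Folr2 encodes folate receptor beta and Lyve1 a hyaluronan receptor best known from lymphatic vessels. Pf4 encodes the chemokine CXCL4, stored in platelet granules and also made by macrophages. Cx3cr1 encodes the receptor of fractalkine and is also found on patrolling monocytes and on some lymphocytes. In tumours, macrophages that derive from recruited monocytes can carry several of these genes, so the genes alone do not give a cell's origin.

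Promoter windows, 250 bases before to 50 after the annotated start (RefSeq, build GRCm38.p6), were found for 6 of the 7 genes, all but Lyve1. The 4 printed below belong to Pf4, Mrc1 and Stab1, whose levels went together across macrophage clusters, and to Cx3cr1, whose level did not follow Pf4 there. Capitals mark matches, in either orientation, to GAGGAA, the core bound by the macrophage factor PU.1, to AGATAA, the site of GATA factors, and to TGCTGA, a site element of MAF factors.
Pf4, chr5:90772185-90772484, plus strand: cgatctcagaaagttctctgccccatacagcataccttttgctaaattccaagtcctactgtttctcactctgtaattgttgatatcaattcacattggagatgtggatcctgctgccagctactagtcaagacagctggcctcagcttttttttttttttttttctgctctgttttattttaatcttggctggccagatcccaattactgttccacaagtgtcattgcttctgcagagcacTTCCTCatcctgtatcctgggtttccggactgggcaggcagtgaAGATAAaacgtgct
Mrc1, chr2:14229164-14229463, plus strand: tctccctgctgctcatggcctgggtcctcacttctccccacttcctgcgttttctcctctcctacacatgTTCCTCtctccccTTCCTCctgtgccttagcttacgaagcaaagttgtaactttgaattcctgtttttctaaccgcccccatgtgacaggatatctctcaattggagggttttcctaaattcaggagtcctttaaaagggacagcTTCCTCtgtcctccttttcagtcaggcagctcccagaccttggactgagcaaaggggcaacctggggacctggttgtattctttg
Stab1, chr14:31168592-31168891, minus strand: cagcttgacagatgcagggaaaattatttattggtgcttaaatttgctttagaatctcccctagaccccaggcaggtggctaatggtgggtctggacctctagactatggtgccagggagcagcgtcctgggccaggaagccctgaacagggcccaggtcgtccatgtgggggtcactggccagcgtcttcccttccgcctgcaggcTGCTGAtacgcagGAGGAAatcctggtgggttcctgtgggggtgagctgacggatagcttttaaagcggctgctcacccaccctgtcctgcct
Cx3cr1, chr9:120068247-120068546, minus strand: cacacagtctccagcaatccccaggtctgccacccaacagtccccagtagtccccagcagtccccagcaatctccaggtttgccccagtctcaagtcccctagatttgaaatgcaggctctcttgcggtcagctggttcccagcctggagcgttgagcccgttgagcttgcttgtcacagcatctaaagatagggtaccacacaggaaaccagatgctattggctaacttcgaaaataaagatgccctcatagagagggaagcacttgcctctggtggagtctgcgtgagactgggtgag
Over both strands, the PU.1 core occurred 3 times in the Mrc1 window and 1 time each in those of Pf4 and Stab1. The GATA site occurred 1 time, in the Pf4 window, and the MAF element 1 time, in the Stab1 window, with no overlap between matches. The Cx3cr1 window and the Cd163 window at chr6:124304401-124304700 (plus strand) held none of these letters. Each of the 2 annotated Folr2 windows, at chr7:101857141-101857440 and chr7:101845282-101845581 on the minus strand, held 1 MAF element. Among 32851 mouse promoter windows of this length, 28.3% held the PU.1 core, 11.2% the GATA site and 19.5% the MAF element, so such matches are common and are given as a description of the windows only.

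Of the 19210 cells in the deposited table, 8716 were used here, among them 4104 macrophages and 2486 monocytes, with 613 to 761 macrophages and 324 to 562 monocytes per mouse. Each mouse gave 16479710 to 19339165 UMIs, with medians of 11259 to 12940 per cell. The deposited names were checked against marker genes: in a comparison of macrophages with monocytes blocked by mouse, 8 of 8 monocyte markers were lower in macrophages, with a median log2 difference of -5.00. Of 8 macrophage markers, 6 were higher and 2 lower, among them Csf1r, the receptor of colony-stimulating factor, with a log2 difference of -0.34. The called markers of non-classical (patrolling) monocytes split, with Ace (-6.53), Nr4a1 (-1.18) and Treml4 (-0.35) lower in macrophages and Spn (0.91) higher. The dendritic cell marker Xcr1 was also higher in macrophages (3.57). Marker genes of platelets, a possible source of Pf4, summed to 2.85 CPM (counts of a gene per 1000000 UMIs; 2.21 to 3.95 over mice) in macrophages and 2.90 CPM (1.61 to 4.34) in monocytes, with Gp1bb at 0 in both and Ppbp at 12 and 3 UMIs. Endothelial markers, a possible source of Lyve1 and Stab1, summed to 127 CPM (105 to 162) in macrophages and 89.9 CPM (69.8 to 131) in monocytes. The lymphatic factor Prox1 was at 0 in macrophages. The part of these cells in the levels was not tested.

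Of the 7 genes, 5 were detected in macrophages at levels that could be compared, and Cd163 and Lyve1 were not. Macrophages held 29954 UMIs of Cx3cr1, 24800 of Pf4, 8200 of Mrc1, 6347 of Stab1 and 380 of Folr2. Cd163 had 0 UMIs among the 64158784 of the macrophages, which allows a level of up to 0.0468 CPM and up to 0.0731% of cells with a UMI, counting error only. Its 12 UMIs in all cells lay in plasmacytoid dendritic cells (5), natural killer cells (3), type 2 dendritic cells (3) and monocytes (1). Lyve1 had 2 UMIs in all, both in macrophages, 1 from the GITR/Syn GA-aFuc mouse and 1 from an Untreated mouse. In monocytes Lyve1 had 0 UMIs of 24796944, which allows up to 0.121 CPM. Of 28 other genes of the resident programme, 16 passed the filter on low counts between macrophages and monocytes, among them Selenop with 15816 UMIs and Ccl8 with 5927 UMIs in macrophages. Some others were as scarce as Cd163 and Lyve1: Timd4, a phosphatidylserine receptor, had 1 UMI in macrophages, Vsig4, a complement receptor, had 4, Marco, a scavenger receptor, had 2, and Cd5l, a secreted scavenger protein, had 0. The set so held 5 genes with a signal and a pair, Cd163 and Lyve1, for which no treatment or cluster could be compared at this depth.

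Each of the 5 detected genes was higher in macrophages than in monocytes, and in each case in 6 of 6 mice (29.6% of all genes tested were called higher in macrophages). Pf4 averaged 391 ± 164 CPM in macrophages against 56.6 ± 24.5 CPM in monocytes (SD, n = 6 mice). Mrc1 stood at 129 ± 66.9 CPM in macrophages against 30.4 ± 7.77 CPM in monocytes. Cx3cr1 stood at 467 ± 45.5 CPM in macrophages against 214 ± 29.9 CPM in monocytes. All macrophage values of these 3 genes lay above all monocyte values. Stab1 stood at 99.0 ± 23.6 CPM in macrophages against 48.0 ± 5.14 CPM in monocytes. Folr2 stood at 5.96 ± 2.09 CPM in macrophages against 0.723 ± 0.667 CPM in monocytes. The mice of the 2 types did not overlap for these genes either. The share of all genes that set the 2 types apart in this way is not given, so the lack of overlap is a description. The macrophage to monocyte ratio within a mouse ranged from 2.04 to 2.32 for Cx3cr1, the narrowest range, and from 2.78 to 21.2 for Folr2, whose monocyte values rested on 17 UMIs. The ratio ranged from 4.53 to 11.7 for Pf4, from 1.73 to 6.55 for Mrc1 and from 1.55 to 2.82 for Stab1.

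The edgeR quasi-likelihood test with the mouse as block and Benjamini-Hochberg adjustment over 11958 genes put all 5 past 0.05, where 58.8% of the genes differed in either direction. The log2 difference was 2.96 ± 0.30 (SE) for Folr2 (adjusted p = 3.09e-08), 2.69 ± 0.21 for Pf4 (adjusted p = 0.000129) and 1.87 ± 0.29 for Mrc1 (adjusted p = 0.00252). For Cx3cr1 it was 1.03 ± 0.039 (adjusted p = 3.33e-15) and for Stab1 0.92 ± 0.093 (adjusted p = 3.80e-06). Cd163 and Lyve1 did not pass the filter on low counts. Folr2, with 17 UMIs in all monocytes, passed it through its macrophage counts, where it was high. Its call is therefore a description and no separate support. The deposited types were named from these same cells, so the test sizes the differences and is not independent evidence of them.

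Macrophages held most of each gene's UMIs among all cells, 94.1% for Folr2, 94.0% for Pf4, 90.7% for Mrc1, 83.4% for Stab1 and 82.6% for Cx3cr1. Over all genes they held 64158784 UMIs, against 24796944 in monocytes and 8670002 in CD8 T cells. The largest part of an evenly expressed gene would thus lie in macrophages too. Barcodes with at most 100 UMIs, which hold RNA free in the suspension, carried Pf4 at 241 CPM, Cx3cr1 at 126 CPM, Stab1 at 65.4 CPM, Mrc1 at 36.5 CPM and Folr2 at 3.98 CPM. CD8 T cells, which should lack the scavenger receptors and Pf4, gave 10.3 ± 2.31 CPM of Pf4, 4.37 ± 2.01 CPM of Stab1 and 2.73 ± 1.74 CPM of Mrc1 (n = 6). Macrophage and monocyte levels of these 3 genes lay above that background. For Cx3cr1, CD8 T cells had 67.0 ± 17.2 CPM and regulatory T cells 116 ± 84.9 CPM (74 cells in all). Natural killer cells had 24.5 CPM of it, so these lymphocyte types did not share 1 low level.

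To compare shares of cells, each cell was thinned to 2000 UMIs, which left out 18 macrophages and 18 monocytes. A Cx3cr1 UMI was then found in 54.5% of macrophages, 28.8% of monocytes and 10.9% of CD8 T cells (91.4%, 59.9% and 31.3% before thinning). A Pf4 UMI was found in 32.6% of macrophages, 6.32% of monocytes and 1.98% of CD8 T cells (66.3%, 17.9% and 7.50% before thinning). The macrophage share ran from 24.8% to 42.1% over mice for Pf4 and from 52.5% to 60.8% for Cx3cr1. Mrc1 was found in 16.5% of macrophages, 3.04% of monocytes and 0.441% of CD8 T cells, and Stab1 in 16.6% of macrophages, 8.87% of monocytes and 1.10% of CD8 T cells (unthinned, Mrc1 45.6%, 11.6% and 2.21%, and Stab1 63.9%, 31.9% and 3.53%). Folr2 was found in 1.03% of macrophages, 0.122% of monocytes and 0.110% of CD8 T cells, so its monocyte share was at the background share. Median depths before thinning were 15222 UMIs for macrophages, 9337 for monocytes and 8158 for CD8 T cells.

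Within macrophages the genes were often found in the same cells. Among thinned macrophages with an Mrc1 UMI, 51.0% had a Pf4 UMI, against 28.9% of those without, and the share was higher in 6 of 6 mice. Stab1 was found in 23.9% of the macrophages with an Mrc1 UMI and 15.2% of those without, and Folr2 in 2.38% and 0.762%, again higher in 6 of 6 mice. Cx3cr1 was found in 71.4% of the 42 macrophages with a Folr2 UMI and 54.3% of those without, and in 59.1% with Mrc1 and 53.6% without (each higher in 6 of 6 mice). It was found in 58.2% with Stab1 and 53.8% without (higher in 5 of 6), and in 54.1% with Pf4 and 54.7% without (higher in 2 of 6). At that depth 24.2% of macrophages had none of the 7 genes, 34.0% had 2 or more and 9.50% had 3 or more. Of thinned monocytes, 59.7% had none and 5.92% had 2 or more.

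**Figure D1:**
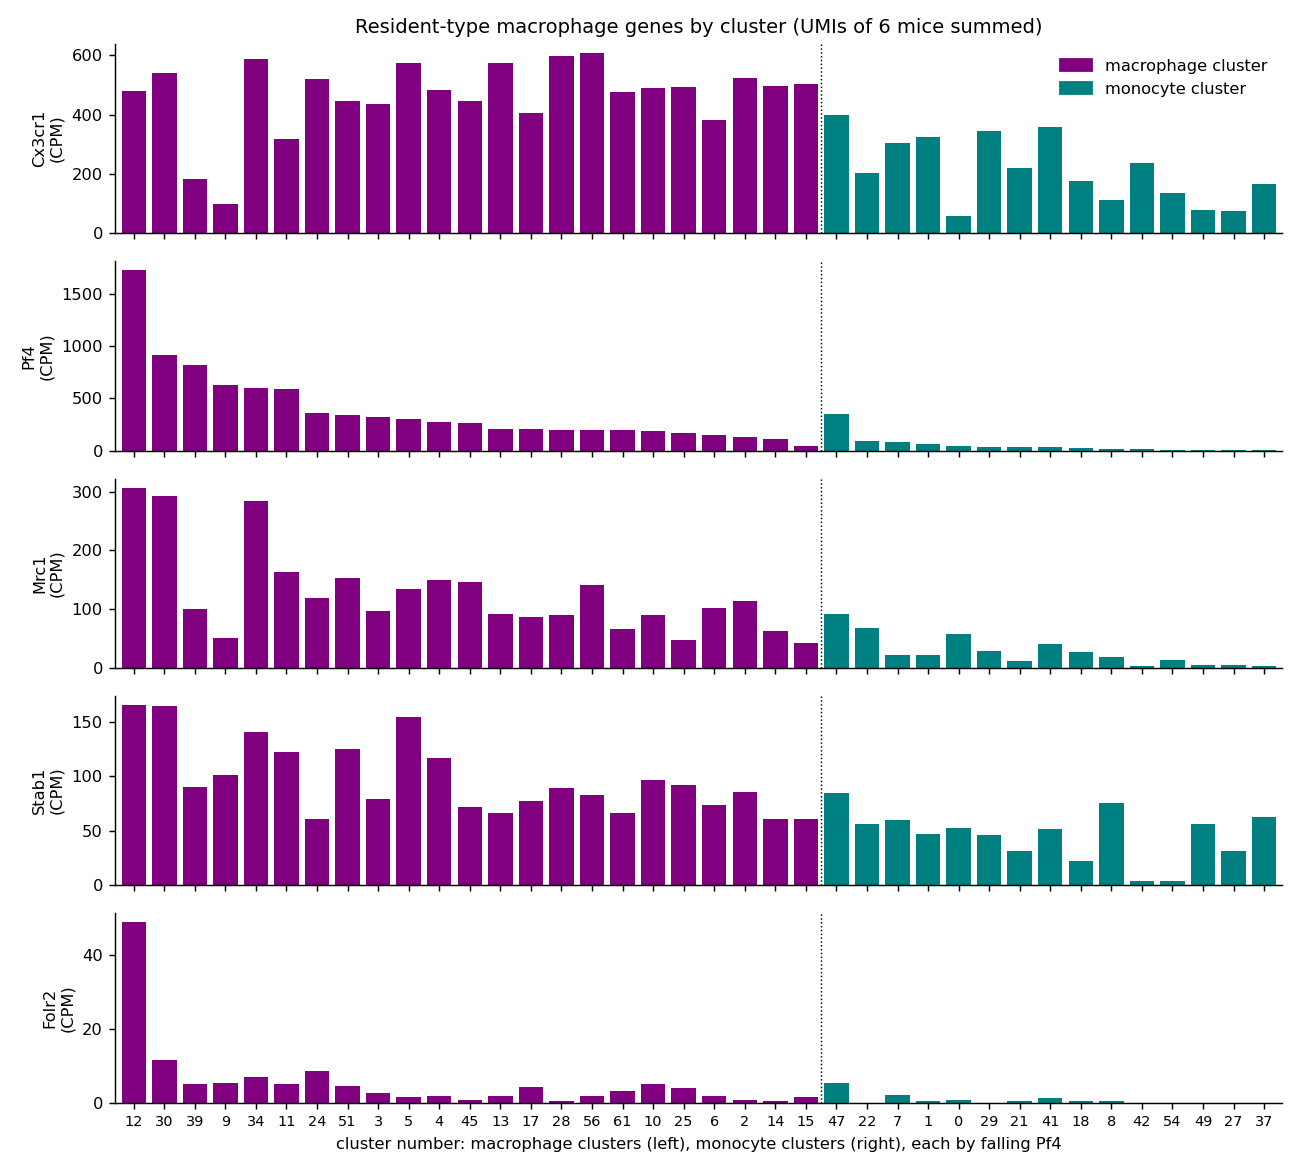
Level (CPM, linear axis from 0) of Cx3cr1, Pf4, Mrc1, Stab1 and Folr2 in each deposited cluster of at least 20 cells, with 23 macrophage clusters on the left and 15 monocyte clusters on the right, each ordered by falling Pf4. Macrophage cluster 12 carries the highest Pf4, Mrc1, Folr2 and Stab1, while Cx3cr1 stays high in most macrophage clusters and does not follow the order of Pf4.

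Across the 23 macrophage clusters of at least 20 cells, 4 of the genes peaked in 1 cluster, cluster 12 (231 cells). There Pf4 reached 1683 ± 585 CPM, Mrc1 299 ± 122 CPM, Stab1 164 ± 33.5 CPM and Folr2 49.6 ± 22.0 CPM (n = 6 mice). With the cells of all mice pooled, Pf4 stood at 1727 CPM in cluster 12 against a median of 267 CPM over macrophage clusters, and Folr2 at 48.8 CPM against a median of 3.18 CPM. In the same cluster Selenop, a selenium carrier, stood at 460 CPM and the chemokine gene Ccl8 at 416 CPM, whereas Ccr2, the receptor that draws monocytes into tissue, stood at 24.0 CPM. The next clusters by Pf4 were 30, with 918 CPM of Pf4 and 292 CPM of Mrc1, and 39, with 824 CPM of Pf4 and 100.3 CPM of Mrc1. Cluster 15 was lowest for 3 genes, with 48.2 CPM of Pf4, 42.7 CPM of Mrc1 and 60.6 CPM of Stab1. Clusters were made from these cells, so their differences are a description with no test.

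The genes differed in how far they spread over macrophage clusters. The highest cluster held 145 times the CPM of the lowest for Folr2, 35.9 times for Pf4, 7.18 times for Mrc1, 6.09 times for Cx3cr1 and 2.73 times for Stab1. Cx3cr1 went its own way: it stood at 99.7 CPM in cluster 9, where Pf4 was at 629 CPM, and at 503 CPM in cluster 15, where Pf4 was lowest. Its highest macrophage level was 608 CPM, in cluster 56. Across the 23 clusters, on log2(CPM + 10), Pearson's r was 0.71 for Pf4 with Stab1, 0.71 for Mrc1 with Stab1, 0.68 for Mrc1 with Pf4 and 0.75 for Folr2 with Pf4. For Cx3cr1 it was -0.35 with Pf4, 0.29 with Mrc1 and -0.01 with Stab1. These values are descriptive, since the clusters come from the same mice and library and differ in cell number.

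Among the 15 monocyte clusters, cluster 47 (55 cells) carried the highest levels, with 353 CPM of Pf4, 91.8 CPM of Mrc1, 85.2 CPM of Stab1 and 399 CPM of Cx3cr1. Its Pf4 level exceeded the macrophage median of 267 CPM. At the other end, cluster 37 had 4.27 CPM of Pf4 and 2.84 CPM of Mrc1, and Folr2 had 0 UMIs in 7 of the 15 clusters. Cluster 42 had the lowest Stab1, 3.57 CPM, beside 237 CPM of Cx3cr1. The number of macrophage clusters above every monocyte cluster was 19 of 23 for Cx3cr1, 15 for Mrc1, 13 for Stab1, 7 for Pf4 and 5 for Folr2.

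Genes with the pattern most like each member were ranked by Pearson's r on log2(CPM + 10) over all 38 clusters and 5352 genes. For Mrc1 they were Psd3 (r = 0.93), Ptgs1 (0.92) and Pf4 (0.91), and for Pf4 they were Timp2 (0.92), Mrc1 (0.91) and Syngr1 (0.90). For Folr2 they were Syngr1 (0.80), Ctsd (0.74) and Cd68 (0.72), for Stab1 Lhfpl2 (0.89), Bin1 (0.85) and Slc37a2 (0.84), and for Cx3cr1 Fgd2 (0.94), Ntpcr (0.93) and Marcks (0.91). Pf4 and Mrc1 were thus each among the other's nearest 3. The clusters share their mice and library, and no r was given for Cd163 or Lyve1.

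**Figure D2:**
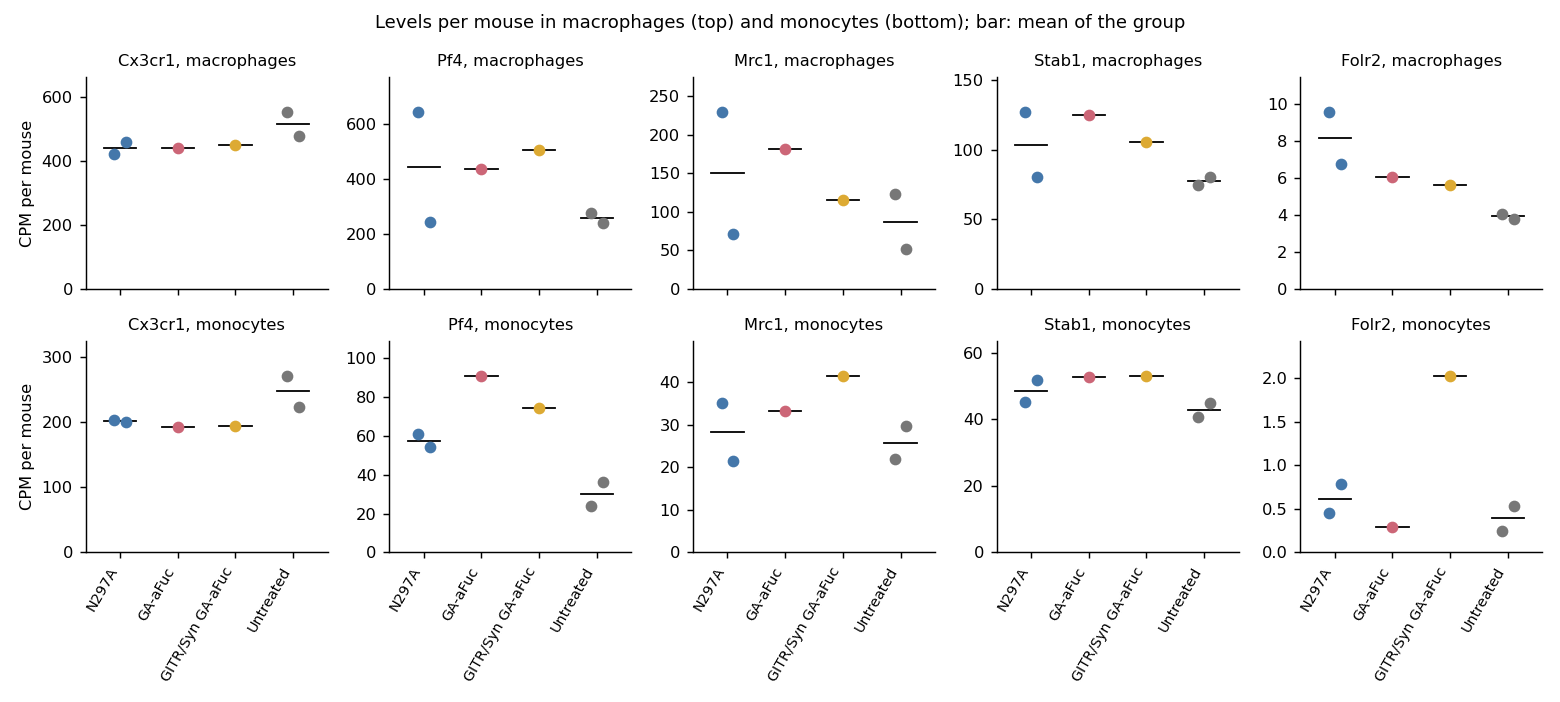
Level (CPM) of Mrc1, Folr2, Pf4, Cx3cr1 and Stab1 in each mouse by treatment, macrophages in the top row and monocytes in the bottom row; a point is 1 mouse and the black line the group mean. In macrophages the N297A mice differ widely in Mrc1 (229 and 71.7 CPM) and Pf4 (641 and 245 CPM), while in monocytes the 4 antibody-treated mice, at 54.1 to 90.7 CPM of Pf4, lie above the Untreated mice at 23.8 and 36.0 CPM.

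The treatment comparisons ask whether the antibody's Fc part and its agonist activity went with a change of these genes 4 days after treatment. In macrophages Pf4 stood at 641 and 245 CPM in the N297A mice, 436 CPM in the GA-aFuc mouse and 506 CPM in the GITR/Syn GA-aFuc mouse, against 277 and 240.2 CPM in the Untreated mice. Of the 4 antibody-treated mice, 3 were above both Untreated mice, and 1 N297A mouse lay between them. Mrc1 stood at 229 and 71.7 CPM in the N297A mice, 182 CPM in the GA-aFuc mouse and 115 CPM in the GITR/Syn GA-aFuc mouse, against 123 and 51.2 CPM in the Untreated mice. The groups overlapped, and the highest and lowest mouse differed more than any pair of group means. Stab1 stood at 127 and 80.4 CPM in the N297A mice, 125 CPM in the GA-aFuc mouse and 106 CPM in the GITR/Syn GA-aFuc mouse, against 74.7 and 80.7 CPM in the Untreated mice. Here 1 N297A mouse lay within the Untreated range and the other 3 antibody-treated mice above it.

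Folr2 in macrophages stood at 9.52 and 6.74 CPM in the N297A mice, 6.05 CPM in the GA-aFuc mouse and 5.62 CPM in the GITR/Syn GA-aFuc mouse, against 4.04 and 3.77 CPM in the Untreated mice. All 4 antibody-treated mice were above both Untreated mice. Cx3cr1 ran the other way, at 422 and 458 CPM in the N297A mice, 441 CPM in the GA-aFuc mouse and 450.1 CPM in the GITR/Syn GA-aFuc mouse, against 552 and 478 CPM in the Untreated mice. All 4 antibody-treated mice were below both Untreated mice, by a small margin beside the gap between the Untreated mice themselves. The share of all genes that set these mice apart in this way is not given, here or in the comparisons below. An order of the mice alone is therefore a description.

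None of these differences passed the edgeR quasi-likelihood test with Benjamini-Hochberg adjustment. In macrophages 0 of the 5 tested genes were called for N297A against Untreated, where 0% of 13526 genes were called in either direction, for GA-aFuc (0.0148% called) and for GITR/Syn GA-aFuc (0.0148%). At an unadjusted p under 0.05 there was 1, Folr2 under N297A (log2 difference 1.05 ± 0.25 SE, adjusted p = 0.997), and DESeq2 called 0. Under N297A, 450 of all 13526 genes had an unadjusted edgeR p under 0.05. The log2 difference of Pf4 was 0.77 ± 0.59 under N297A, 0.72 ± 0.70 under GA-aFuc and 0.96 ± 0.70 under GITR/Syn GA-aFuc, and that of Cx3cr1 was -0.23 ± 0.11, -0.26 ± 0.14 and -0.20 ± 0.14. Set against the 4 mice without an Fc-enhanced antibody, the 2 Fc-enhanced mice had a Pf4 log2 difference of 0.41 ± 0.50 and 0 of 5 genes called (0% of 12925 genes). The median log2 difference of the 5 genes was 0.77 under N297A, 0.65 under GA-aFuc, 0.44 under GITR/Syn GA-aFuc, and 0.31 for the Fc-enhanced pair, with the median of all genes tested near 0.

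Leaving out either N297A mouse changed these calls. Without the N297A mouse that had 641 CPM of Pf4, edgeR called Pf4 higher under GA-aFuc (0.72 ± 0.14, adjusted p = 0.0220), under GITR/Syn GA-aFuc (0.96 ± 0.14, adjusted p = 0.000968) and in the Fc-enhanced pair (0.87 ± 0.091, adjusted p = 0.00188). Stab1 was then called higher under GA-aFuc (0.65 ± 0.12, adjusted p = 0.0202) and in the Fc-enhanced pair (0.53 ± 0.087, adjusted p = 0.0287). Without the other N297A mouse, Pf4 was called higher under N297A (1.30 ± 0.14, adjusted p = 6.93e-05), GA-aFuc (adjusted p = 0.0296) and GITR/Syn GA-aFuc (adjusted p = 0.00151). Stab1 was then called under N297A (adjusted p = 0.00870) and GA-aFuc (adjusted p = 0.0223), and Folr2 under N297A (1.27 ± 0.28, adjusted p = 0.0310). In the model with 4 treatments the spread then came from the Untreated pair alone, so these calls rest on how close those 2 mice were. The share of all genes called in the same refits is not given here, so the calls cannot be read as particular to these genes.

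**Figure D3:**
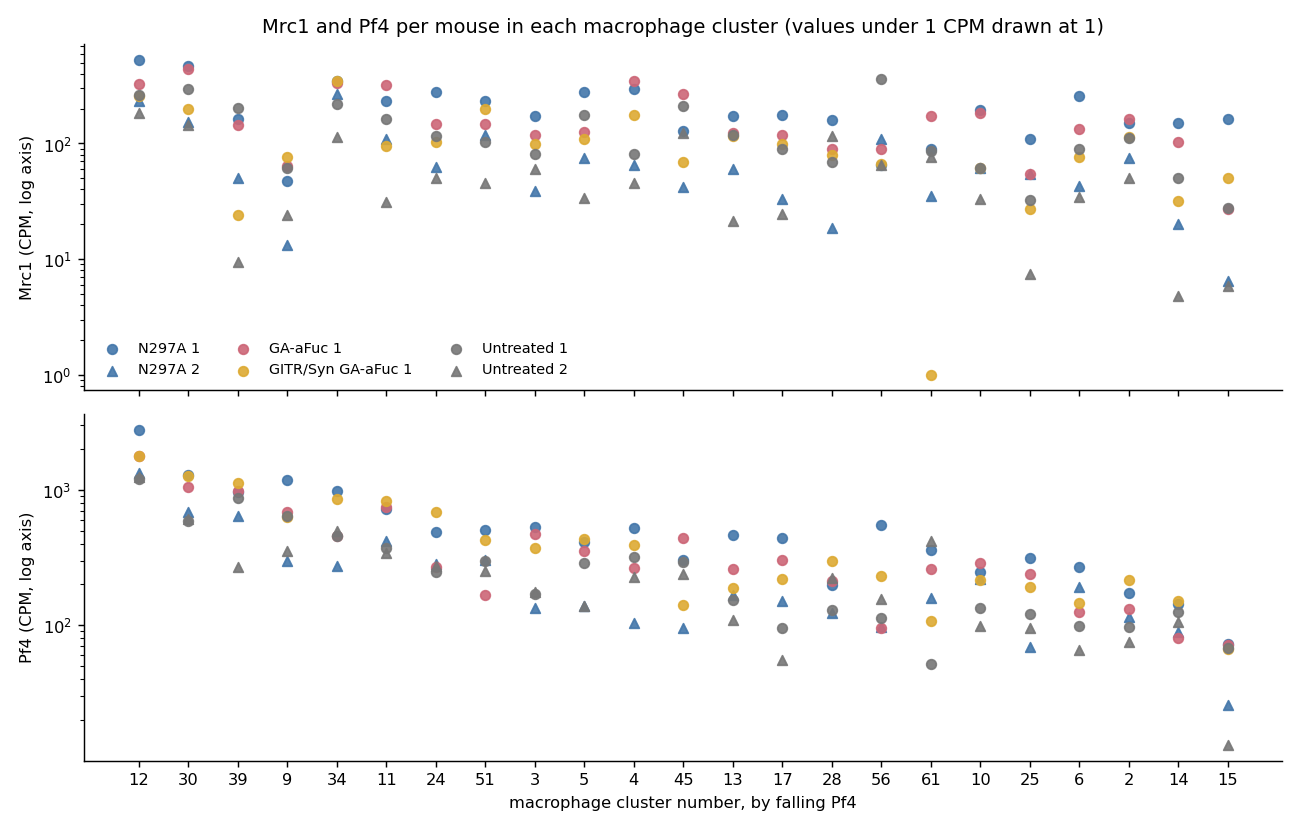
Level (CPM, log axis, values under 1 drawn at 1) of Mrc1 and Pf4 in each mouse and macrophage cluster; circles are replicate 1 and triangles replicate 2 of a treatment. The same N297A mouse is the higher of its pair in 22 of 23 clusters for Mrc1 and in 23 of 23 for Pf4.

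The gap between mice of the same group ran through nearly all macrophage clusters. Mrc1 differed 3.19-fold between the N297A mice and 2.40-fold between the Untreated mice. Averaged over both pairs, that is a log2 gap of 1.47, and 3 of the 3387 macrophage genes of at least 50 CPM (0.0886%) had a larger one. The median gap over these genes was 0.114. The N297A mouse with more Mrc1 was the higher one in 22 of 23 macrophage clusters, and the Untreated mouse with more Mrc1 was the higher one in 22 of 23. For Pf4 the N297A pair differed 2.62-fold and in the same order in 23 of 23 clusters, while the Untreated pair differed 1.15-fold. Cx3cr1 differed 0.922-fold and 1.16-fold in the N297A and Untreated pairs, a gap exceeded by 31.2% of the genes. The clusters are parts of the same mice, so the cluster counts are not independent.

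In monocytes Pf4 rose under GA-aFuc, the 1 change of a detected gene that passed the test over a whole cell type. Monocyte Pf4 stood at 61.0 and 54.1 CPM in the N297A mice, 90.7 CPM in the GA-aFuc mouse and 74.1 CPM in the GITR/Syn GA-aFuc mouse, against 23.8 and 36.0 CPM in the Untreated mice. All 4 antibody-treated mice were above both Untreated mice, and the Fc-enhanced mice were above both N297A mice. The UMIs behind these levels were 272 and 206 in the N297A mice, 310 in the GA-aFuc mouse and 256 in the GITR/Syn GA-aFuc mouse, against 97 and 201 in the Untreated mice. The edgeR quasi-likelihood log2 difference was 1.57 ± 0.21 under GA-aFuc (adjusted p = 0.0257), where 0.166% of 11422 genes were called higher, 0.193% in either direction, and 1 of the 4 tested members was called. It was 1.30 ± 0.22 under GITR/Syn GA-aFuc (adjusted p = 0.0743; called by DESeq2) and 0.95 ± 0.18 under N297A (adjusted p = 0.692).

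In the GA-aFuc mouse, 1 cell held 53 of the 310 monocyte Pf4 UMIs (17.1%). Without the highest member cell of each mouse, the Pf4 difference under GA-aFuc was 1.30 with an edgeR adjusted p of 0.178. Every mouse lost a cell in that fit, so the part of any 1 cell in the call was not tested. For the other 2 antibodies 0 members were called in monocytes, where 0.21% of genes were called under GITR/Syn GA-aFuc and 0.00876% under N297A in either direction. At an unadjusted edgeR p under 0.05 there were 3 and 2 of the 4 tested members. Over all 11422 genes, 758 under GITR/Syn GA-aFuc and 397 under N297A had such a p. In CD8 T cells, the order of the mice was another: Pf4 was at 8.17 and 8.46 CPM in the N297A mice, 8.49 CPM in the GA-aFuc mouse and 11.2 CPM in the GITR/Syn GA-aFuc mouse, against 11.6 and 13.9 CPM in the Untreated mice. The Untreated mice were the highest of the 6 there. The neutrophil marker S100a9 was higher in the monocytes of the GITR/Syn GA-aFuc mouse, with a log2 difference of 4.45 ± 0.68 (edgeR adjusted p = 0.0344), the 1 called of 4 neutrophil markers tested. The median log2 difference of the 4 was 0.22 under N297A, 2.07 under GA-aFuc and 3.04 under GITR/Syn GA-aFuc. All 5 neutrophil markers listed summed in monocytes to 54.9 and 64.3 CPM in the N297A mice, 68.2 CPM in the GA-aFuc mouse and 76.4 CPM in the GITR/Syn GA-aFuc mouse, against 57.2 and 50.6 CPM in the Untreated mice, and none of the 5 was at 0. Their part in the Pf4 values was not tested. The monocytes of the GA-aFuc mouse also had less Ccr2, with a log2 difference of -0.81 ± 0.11 (adjusted p = 0.0212). With the cluster makeup held equal between mice, the log2 ratio of Pf4 was 1.48, against 1.60 as measured.

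The other 3 tested genes did not pass in monocytes. Mrc1 stood at 35.0 and 21.5 CPM in the N297A mice, 33.1 CPM in the GA-aFuc mouse and 41.4 CPM in the GITR/Syn GA-aFuc mouse, against 21.8 and 29.6 CPM in the Untreated mice. The groups overlapped through 1 N297A mouse, and the log2 difference was 0.68 ± 0.29 under GITR/Syn GA-aFuc (edgeR adjusted p = 0.732). Stab1 stood at 45.1 and 51.7 CPM in the N297A mice, 52.7 CPM in the GA-aFuc mouse and 53.0 CPM in the GITR/Syn GA-aFuc mouse, against 40.7 and 44.8 CPM in the Untreated mice. Cx3cr1 stood at 202 and 199 CPM in the N297A mice, 193 CPM in the GA-aFuc mouse and 194 CPM in the GITR/Syn GA-aFuc mouse, against 271 and 223 CPM in the Untreated mice. For both genes the antibody-treated and Untreated mice did not overlap, Stab1 being higher and Cx3cr1 lower with antibody. The share of all genes without such an overlap is not given here. The Cx3cr1 log2 difference was -0.27 ± 0.11 under N297A, -0.37 ± 0.14 under GA-aFuc and -0.34 ± 0.14 under GITR/Syn GA-aFuc, with edgeR adjusted p-values of 0.999, 0.632 and 0.720. In the Fc-enhanced pair against the other 4 mice, 0 of 4 genes were called (0.0826% of genes) and 1, Mrc1, had an unadjusted p under 0.05 (log2 difference 0.44 ± 0.20, adjusted p = 0.626). Of all 10896 genes, 857 had an unadjusted edgeR p under 0.05 there.

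The antibody differences of macrophages and monocytes were set against each other in 1 model with the interaction of type and treatment. No member was called: the edgeR adjusted p-values were 0.846 and above. Of all 11958 genes, 0 were called under N297A, 1 under GA-aFuc, 1 under GITR/Syn GA-aFuc and 2 for the Fc-enhanced pair. Almost no gene was called, so the lack of member calls is not particular to these genes. For Pf4 under GA-aFuc the macrophage minus monocyte log2 difference was -0.83 ± 0.79 (SE), and for Folr2 under GITR/Syn GA-aFuc it was -1.74 ± 0.90.

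**Figure D4:**
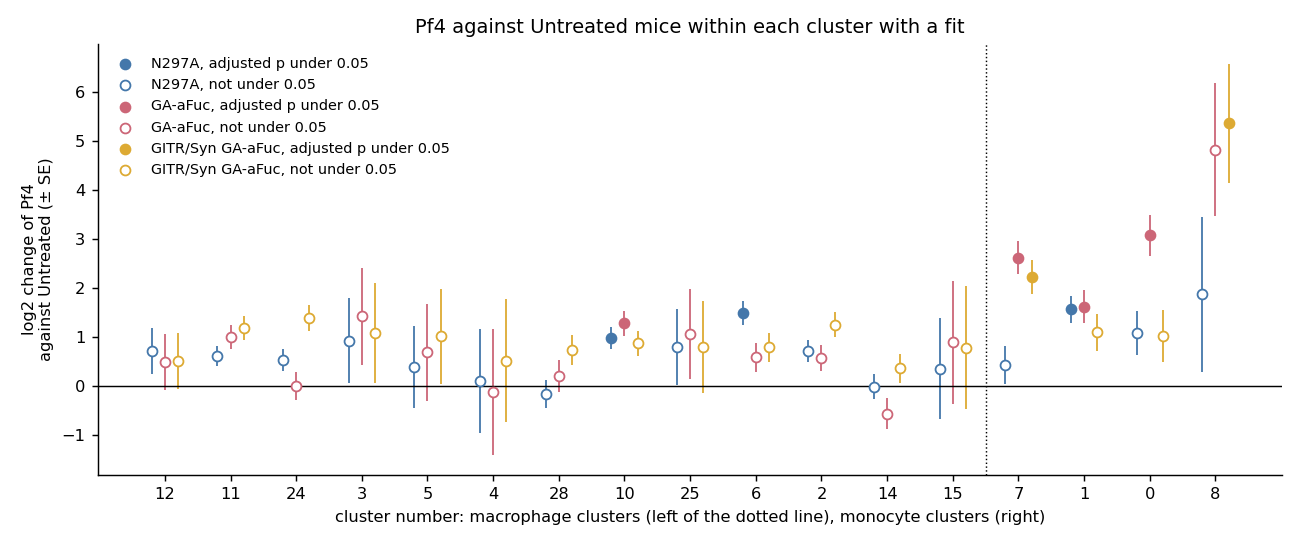
Log2 difference of Pf4 against Untreated, with its SE, in each cluster where Pf4 was tested; 13 macrophage clusters stand on the left and 4 monocyte clusters on the right, and filled points passed an adjusted p of 0.05. Most points lie above 0, and the filled ones are in macrophage clusters 6 and 10 and monocyte clusters 0, 1, 7 and 8.

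There were 18 clusters that had enough cells for a fit of their own. Over them, edgeR called member genes higher 4 times under N297A (0.0253% of gene and cluster pairs called higher, 0.0333% in either direction), 5 times under GA-aFuc (0.0729% and 0.0824%), 2 times under GITR/Syn GA-aFuc (0.15% and 0.169%) and 2 times in the Fc-enhanced pair (0.0796% and 0.091%). All 13 calls were of Pf4 or Mrc1, and no member was called lower. DESeq2 made 1 of the calls and gave no adjusted p in monocyte cluster 8. In that cluster Pf4 passed the filter on low counts only through the Fc-enhanced mice, where it was high. The log2 difference of Pf4 was above 0 in 15 of 17 clusters under N297A, 15 of 17 under GA-aFuc and 17 of 17 under GITR/Syn GA-aFuc. That of Cx3cr1 was below 0 in 17 of 18, 17 of 18 and 14 of 18 clusters, and that of Stab1 above 0 in 14 of 18, 17 of 18 and 17 of 18. These comparisons share the Untreated mice, and clusters share all mice.

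In macrophage cluster 10, both Pf4 and Mrc1 passed the test; it was not tested against other clusters. The antibody mean was above the Untreated mean in 21 of 23 macrophage clusters for Pf4 and in 18 of 23 for Mrc1. Cluster 10 Pf4 stood at 249 and 221 CPM in the N297A mice, 290.2 CPM in the GA-aFuc mouse and 217 CPM in the GITR/Syn GA-aFuc mouse, against 135 and 98.3 CPM in the Untreated mice. Every antibody-treated mouse was above both Untreated mice. The log2 difference was 1.29 ± 0.26 under GA-aFuc (edgeR adjusted p = 0.000668) and 0.99 ± 0.22 under N297A (adjusted p = 0.00424). Mrc1 stood at 194 and 61.8 CPM in the N297A mice, 183 CPM in the GA-aFuc mouse and 61.1 CPM in the GITR/Syn GA-aFuc mouse, against 61.8 and 33.2 CPM in the Untreated mice. One N297A mouse and the GA-aFuc mouse were high and the other 2 antibody-treated mice matched the higher Untreated mouse. The log2 difference was 1.93 ± 0.34 under GA-aFuc (edgeR adjusted p = 0.000232) and 1.38 ± 0.30 under N297A (adjusted p = 0.00892). In the same cluster Ccl8, a chemokine of resident macrophages, rose on the log2 scale by 2.98 under N297A. It also rose by 2.61 under GITR/Syn GA-aFuc, where neither Pf4 nor Mrc1 was called. Ccr2 fell by 1.56 under N297A. Monocyte markers went both ways there: Plac8 rose by 1.10 under GA-aFuc and Ly6c2 by 1.31 under GITR/Syn GA-aFuc. The calls were lost without the Untreated mouse with 98.3 CPM of Pf4, at adjusted p-values of 0.129 for Mrc1 and 0.318 for Pf4 under GA-aFuc, and 0.615 and 0.577 under N297A. Without the N297A mouse with 194 CPM of Mrc1, the Mrc1 difference under N297A was 0.41 and the Pf4 adjusted p 0.0654. Without the 5% of cells with the most UMIs, the Mrc1 adjusted p was 0.888 under GA-aFuc and 0.999 under N297A.

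In macrophage cluster 6, Pf4 stood at 269 and 193 CPM in the N297A mice, 125 CPM in the GA-aFuc mouse and 146 CPM in the GITR/Syn GA-aFuc mouse, against 98.7 and 65.6 CPM in the Untreated mice. The N297A mice were the highest of the 6, and the difference under N297A was 1.49 ± 0.24 (edgeR adjusted p = 0.00350). Without the highest member cell of each mouse, the edgeR adjusted p was 0.0621. In cluster 12, where the 4 genes peaked, no member was called. Its Pf4 stood at 2755 and 1336 CPM in the N297A mice, 1774 CPM in the GA-aFuc mouse and 1788 CPM in the GITR/Syn GA-aFuc mouse, against 1203 and 1243 CPM in the Untreated mice. Its Folr2 stood at 53.3 and 82.7 CPM in the N297A mice, 59.0 CPM in the GA-aFuc mouse and 52.2 CPM in the GITR/Syn GA-aFuc mouse, against 23.9 and 26.2 CPM in the Untreated mice. For both genes every antibody-treated mouse was above both Untreated mice, although Folr2 rested on 14 to 40 UMIs per mouse.

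In monocyte cluster 7, Pf4 separated the Fc-enhanced mice from the rest. It stood at 223 CPM in the GA-aFuc mouse and 175 CPM in the GITR/Syn GA-aFuc mouse, against 59.5 and 40.0 CPM in the N297A mice and 45.1 and 31.0 CPM in the Untreated mice. The Fc-enhanced pair against the other 4 mice gave a log2 difference of 2.24 ± 0.25 (edgeR adjusted p = 3.82e-06), a call that DESeq2 also made. Against Untreated alone, it was 2.62 ± 0.34 under GA-aFuc (adjusted p = 0.00197) and 2.23 ± 0.34 under GITR/Syn GA-aFuc (adjusted p = 0.0101). Without 1 or the other N297A mouse these adjusted p-values were 0.438 and 0.358 under GA-aFuc and 0.633 and 0.537 under GITR/Syn GA-aFuc. The haem-degrading enzyme gene Hmox1 rose in the same cluster under GITR/Syn GA-aFuc, by 2.69 on the log2 scale.

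In monocyte cluster 1, Pf4 stood at 72.8 and 121 CPM in the N297A mice, 99.9 CPM in the GA-aFuc mouse and 69.9 CPM in the GITR/Syn GA-aFuc mouse, against 26.0 and 38.3 CPM in the Untreated mice. All 4 antibody-treated mice were above the Untreated mice. The log2 difference was 1.57 ± 0.28 under N297A (edgeR adjusted p = 0.00211) and 1.63 ± 0.34 under GA-aFuc (adjusted p = 0.0101). The N297A call was lost without the N297A mouse with 121 CPM. It was also lost without the highest member cell of each mouse (edgeR adjusted p = 0.428). In that cluster the phagocytic receptor gene Mertk rose under GA-aFuc by 2.07, while the monocyte genes Ccr2, Plac8 and Ly6c2 fell by 0.96, 0.90 and 0.81 on the log2 scale. The other monocyte calls rested on few molecules. In cluster 0, Pf4 had 72 UMIs in the GA-aFuc mouse, against 4 and 15 in the Untreated mice. Its log2 difference was 3.08 ± 0.42 (edgeR adjusted p = 0.00380). Without the highest member cell of each mouse, it became 1.16 with an edgeR adjusted p of 0.724. In cluster 8, Pf4 had 17 UMIs in the GITR/Syn GA-aFuc mouse and 9 in the GA-aFuc mouse. The N297A mice had 1 and 3 UMIs and the Untreated mice 0 and 1. Pf4 passed the filter on low counts there only through the Fc-enhanced mice, where it was high. Its calls in that cluster are therefore a description and no separate support. The ratio of GITR/Syn GA-aFuc to Untreated there was 48.0, with a 95% counting interval from 7.52 to 2006. The edgeR adjusted p was 0.00663 for GITR/Syn GA-aFuc (0.0933 without the highest member cell of each mouse) and 0.00592 for the Fc-enhanced pair.

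Other genes of the resident and neighbouring programmes, from lists chosen with earlier results of these data known, were compared between macrophages and monocytes in the blocked edgeR fit, in which 29.6% of all genes were called higher and 58.8% in either direction. Of 28 further resident macrophage genes, 16 were tested; 8 were higher and 4 lower in macrophages, with a median log2 difference of 0.17 against 0.019 over all genes. The higher ones included the chemokine Ccl8 (2.88), the MERTK ligand Gas6 (2.59), Selenop (0.90) and the sialic acid receptor Siglec1 (0.41), and the lower ones the transglutaminase subunit F13a1 (-1.94) and the lectin Clec10a (-0.57). Of 8 tested genes of the Cx3cr1 axis and microglial type, 6 were higher, among them Fcrls (3.90), Gpr34 (1.33) and Tmem119 (1.19), and 2 lower. Of 8 tested scavenger receptors beside the members, 1 was higher, Cd68 (0.21), and 5 lower, among them the oxidised lipoprotein receptor Olr1 (-4.73) and Msr1 (-0.74). Stab1 and Mrc1 stood higher in macrophages, whereas most other scavenger receptors tested stood lower. Of 11 tested transcription factor genes, 3 were higher (a share near that of all genes), namely Pparg (0.93), Klf2 (0.74) and Maf (0.55), and 5 lower, among them Irf4 (-1.62) and Nr4a1 (-1.18). Of 6 tested partners of folate, CXCL4 and CD163 biology, 0 were higher and 2 lower, among them Hp, which encodes the haptoglobin that CD163 binds (-7.35).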

How the data were processed

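CD45+ cells of 6 hashtagged mice were measured in 1 droplet 3' library. The values are whole-number UMI counts per gene and barcode, deposited by the authors and made with Cell Ranger 9.0.0 against GRCh38 together with GRCm39, per the submitters' processing notes and the file headers. Hashtag counts were deposited by the authors in the same unit. Cell types, clusters and treatments came from the authors' deposited cell table, whose clustering and doublet steps are not given in the sources used here.

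Table cells with at least 1000 mouse UMIs were kept, 8767 of 19210; 33 were dropped because their top hashtag did not match the treatment in the table, 18 because their barcode came up more than once, and 10443 table cells were not used here. The top hashtag (median share 96.2%) was taken as the mouse, which treats each hashtag as 1 mouse. Counts were summed per mouse and per type or cluster (at least 20 cells) and expressed as CPM. edgeR 4.0.16 (TMM, filterByExpr, robust quasi-likelihood fit; R 4.3.3, limma 3.58.1) was run on all genes with Benjamini-Hochberg adjustment and a threshold of 0.05. The models were 1 with the 4 treatments and 1 with Fc-enhanced against other mice; macrophages and monocytes were compared with the mouse as block. The fitting step was tested on simulated counts with the same spread for every gene, which was not set to that of the members. Alternatives were DESeq2 1.42.0, RLE size factors, no low-count filter, 2000 UMIs per cell and a hashtag share of 90%. Further fits left out the top 5% of cells by UMIs, the highest member cell of each mouse, or each mouse in turn. Summaries used Python 3.11.15, numpy 2.4.6, scipy 1.17.1, pandas 2.3.3 and matplotlib 3.10.9. Other genes were named where the adjusted p passed 0.05 and they were in a list, or, for likeness, as the 3 with the highest r per member; the genes and lists were chosen with earlier results of these data known. Intervals and zero-count limits cover counting error only. Cells of 1 mouse are not replicates, and fewer macrophages of a kind and less RNA per cell are told apart here only as far as the deposited clusters go.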

Additional observations from a re-analysis of the deposited data

Results flagged for a closer look

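Among 20 groups of mice tested, 3 held a mouse far from the others by Dixon's gap test at the 95% level, and chance gives about 1 in 20. Pf4 in macrophages was 641 CPM in 1 N297A mouse, the highest of the 4 mice without an Fc-enhanced antibody, with a gap of 0.908 of their range. Stab1 in macrophages was 127 CPM in the same mouse, with a gap of 0.886 of the range. Folr2 in monocytes was 2.03 CPM in the GITR/Syn GA-aFuc mouse, the highest of the 6, with a gap of 0.695 of the range; it rested on 7 UMIs.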

How the results depend on the processing

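The 5 members called higher in macrophages than in monocytes stayed 5 under every alternative run, from 5 to 5 with each mouse left out and 5 with no replicate block. For the treatments, no paired analysis was possible because the labels give no replicate numbers shared between treatments. No log2 difference of a member that edgeR called in the main fit reversed its sign. The treatment differences that were not called were not checked for this. In macrophages the count of called members ran, with each mouse left out, from 0 to 3 under N297A, 0 to 2 under GA-aFuc, 0 to 1 under GITR/Syn GA-aFuc and 0 to 2 for the Fc-enhanced pair. In monocytes it ran from 0 to 1 under N297A, 1 to 1 under GA-aFuc, 0 to 1 under GITR/Syn GA-aFuc and 0 to 0 for the Fc-enhanced pair. With no filter on low counts, 1 member was called in monocytes under N297A and 1 under GITR/Syn GA-aFuc, where DESeq2 also called 1. Without the highest member cell of each mouse, 0 were called in monocytes under GA-aFuc. Over clusters, DESeq2 called 0 under N297A, 0 under GA-aFuc, 0 under GITR/Syn GA-aFuc and 1 for the Fc-enhanced pair, against 4, 5, 2 and 2 with edgeR. Without the highest member cell the cluster calls were 2 under N297A, 1 under GITR/Syn GA-aFuc and 1 for the Fc-enhanced pair; without the top 5% of cells by UMIs they were 1 under GITR/Syn GA-aFuc and 1 for the Fc-enhanced pair; with no filter they were 5 and 4. With each mouse left out they ran from 3 to 17 under N297A (17 without the N297A mouse with 245 CPM of macrophage Pf4), 5 to 12 under GA-aFuc (12 without 1 or without the other N297A mouse), 3 to 6 under GITR/Syn GA-aFuc and 2 to 4 for the Fc-enhanced pair. The cause of these shifts was not tested, other than that fewer mice set the spread. The share of all genes called with a mouse left out is not given here, so these counts have no background beside them. The 2 Fc-enhanced treatments had 1 mouse each, and levels under about 10 UMIs per mouse, as for Folr2 in monocytes, were limited by depth.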

Other observations

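Timd4, a receptor for dead cells that marks resident macrophages in many tissues, had 129 UMIs in type 2 dendritic cells (54.3 CPM), against 1 UMI in all macrophages. Cd209d showed a like layout, with 64 UMIs in type 2 dendritic cells (26.9 CPM), against 2 in macrophages. Mrc1 was also found in type 2 dendritic cells, at 20.5 ± 24.0 CPM (SD, n = 6 mice). Hmox1, the haem-degrading enzyme downstream of CD163, rose under GITR/Syn GA-aFuc on the log2 scale by 4.42 in macrophage cluster 3, 2.21 in macrophage cluster 2 and 1.60 in macrophage cluster 10, and by 4.46 in monocyte cluster 0, each past an edgeR adjusted p of 0.05, while Cd163 itself had 0 UMIs in macrophages.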
